A study of Ovis aries with 2 samples.

Results

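Ribosomal protein genes encode the protein parts of the 2 ribosomes of an animal cell, the cytosolic ribosome and the mitochondrial ribosome. Genes named RPL, RPS, RPLP or RPSA (cytosolic) and MRPL or MRPS (mitochondrial) were taken from the list of PPARG-bound intervals by their names alone, with the S6 kinase genes of similar name left out. The rule found 28 genes at 31 intervals, out of 1833 gene names and 2288 intervals in all. Of the 28 genes, 18 were cytosolic and 10 mitochondrial.

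The data came from conceptuses, the embryo with its extraembryonic membranes, of columbia/ramboulette crossbred ewes on day 14 of pregnancy. Tissue of 4 conceptuses, each from its own ewe, was pooled, and chromatin immunoprecipitation followed by sequencing (ChIP-seq) gave 1 library with an antibody against PPARG and 1 library of unprecipitated input chromatin. The labels give no treatment or genotype and describe both libraries alike apart from the antibody, and a pool hides the spread between animals. Neither library was replicated, so no test was made, the values carry no biological error, and the 95% intervals printed with shares are Wilson intervals for the counting error alone. Binding data do not report expression, so the tissue label was not checked against marker genes.

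PPARG is a nuclear receptor for lipid ligands that pairs with a retinoid X receptor on DNA, and it is best studied in fat cells. Cytosolic ribosomal proteins are needed in near equal amounts, and their genes are transcribed by RNA polymerase II at high rates from short promoters in most dividing cells. Mitochondrial ribosomal proteins are also encoded in the nucleus and are imported into mitochondria, where their ribosome makes core subunits of the respiratory chain. The sheep conceptus elongates and grows fast in this stage of pregnancy.

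Each interval has a height, the highest value of a fragment-density track, in deposited signal units. Their scaling was not given in the sources used here. Distances run from the summit of an interval to the start of the gene, and positions refer to build Oar_v3.1. Over all 2288 intervals the median height was 22, with quartiles of 17 and 31. The input library had 5 listed intervals, and 0 of the 31 ribosomal protein intervals overlapped one by 1 bp or more. The input signal at the 31 intervals is not listed in the table.

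**Figure D1:**
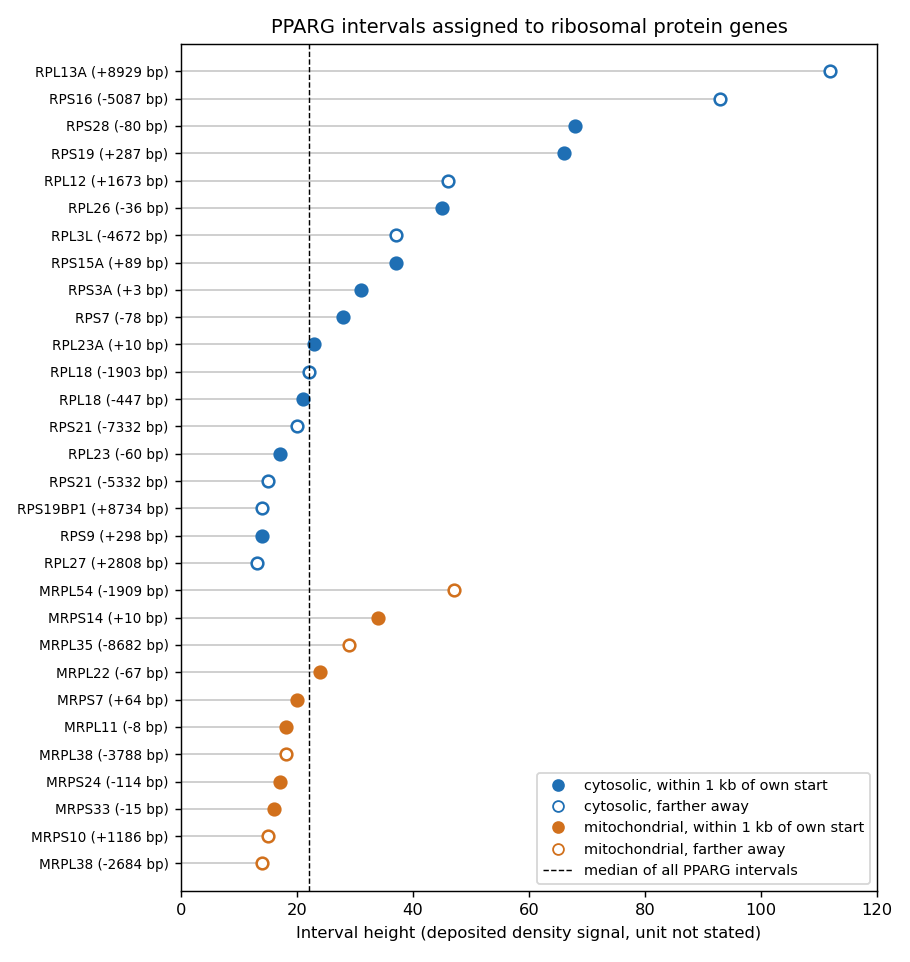
Height of each PPARG interval (horizontal axis, deposited signal units) assigned to a ribosomal protein gene (vertical axis, with the distance of the summit from the gene's own start, negative for upstream). Filled points lie within 1 kb of the start, open points farther away, and the dashed line is the median of all PPARG intervals, 22. The highest points, at RPL13A with 112 and RPS16 with 93, are open.

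Cytosolic ribosomal protein genes held an interval in 16 of the 81 family members named in RefSeq (19.8%, 95% interval 12.5 to 29.7), beside 9.28% of all 16388 named protein-coding genes. Mitochondrial ones held one in 10 of 75 (13.3%, 7.41 to 22.8), beside the same share of all genes. MRPL57, listed under its older name MRP63, is not among these 10 and was counted with other names below. RPL26 and RPS28 have intervals but are not among the RefSeq protein-coding names, so the 18 cytosolic genes give 16 here. By subunit, the shares were 9 of 32 for the small and 7 of 49 for the large cytosolic subunit, and 5 of 26 and 5 of 49 for the mitochondrial ones. The small cytosolic counts include RPS19BP1, which follows the naming rule but encodes a binding partner of RPS19 and not a subunit. These shares were not tested against all genes, and gene length and the density of neighbouring genes were not matched.

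Counted only where the summit lay within 1 kb of the start of the same gene, 8 of the 81 cytosolic family members (9.88%, 5.09 to 18.3) and 6 of the 75 mitochondrial ones (8.0%, 3.72 to 16.4) had an interval, beside 2.31% of all named genes. With RPL26 and RPS28, 16 of the 28 genes had such an interval, 10 cytosolic and 6 mitochondrial. In those 16 the summit lay between 3 and 447 bp from the start, with a median of 65.5 bp, and 12 of the 16 lay within 100 bp. Over all 467 pairs of an interval and a gene start within 1 kb, the median was 150 bp and 37.5% lay within 100 bp. Summits fall on multiples of 16 bp in 97.1% of intervals, which limits how finely a distance can be read. Of the 16 summits, 9 were upstream of the start and 7 inside the gene. Over all 467 pairs, 32.8% had the summit at or past the start.

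**Figure D2:**
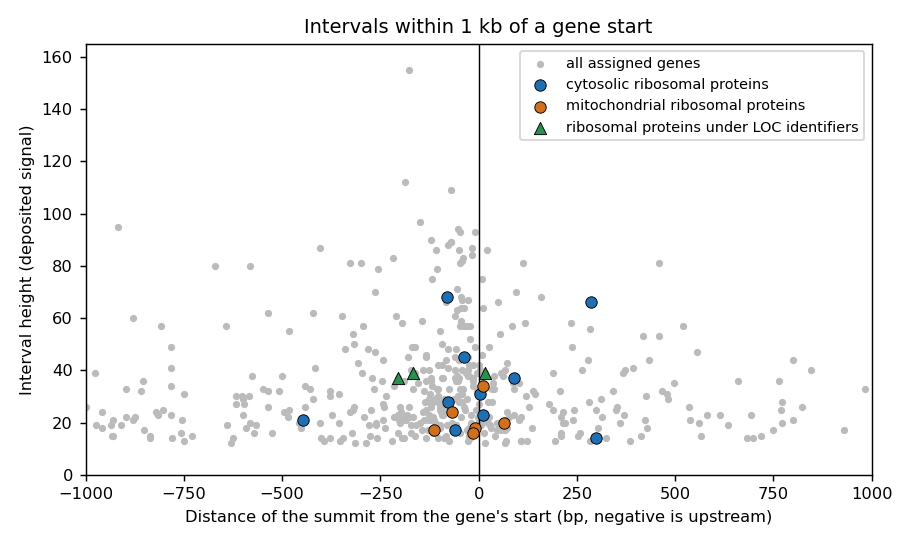
Interval height (vertical axis, deposited signal units) against the distance of the summit from the gene's start (horizontal axis, bp, negative is upstream) for all 467 pairs within 1 kb (grey) and for ribosomal protein genes. Cytosolic genes are blue, mitochondrial genes orange, and RPS2, RPS6 and RPL4, listed under LOC identifiers, are green triangles. Of the 16 named genes, 12 lie within 100 bp of the start.

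Small-subunit proteins of the cytosolic ribosome had the highest intervals at their own starts. RPS28, which lies near the path of the messenger RNA through the ribosome, had a height of 68 with the summit 80 bp upstream (on chromosome 5, 14649263 to 14650280). Its interval ranked 59 by height, held no CpG island and had its summit 44 bp upstream of NDUFA7, a respiratory complex I gene. RPS19, which is mutated in Diamond-Blackfan anaemia, a red cell aplasia of humans, had 66 with the summit 287 bp into the gene (on chromosome 14, 50422212 to 50423105). This interval held a CpG island and ranked 69, and the other gene assigned to it, DMRTC2, had its start 9321 bp away. These 2 intervals stood above the other 14 at own starts, which ran from 14 to 45.

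RPS15A, a small-subunit protein, had 37 with the summit 89 bp into the gene (on chromosome 24, 16392120 to 16392931). RPS3A had 31 with the summit 3 bp into the gene, and no other gene was assigned to its interval (on chromosome 17, 6552476 to 6553429). RPS7, whose protein also binds the p53 regulator MDM2, had 28 at 78 bp upstream (on chromosome 2, 1893008 to 1894168). All 3 intervals held a CpG island, lay above the median of 22 and had no other gene start within 1 kb. RPS9 lay below it, with 14 at 298 bp into the gene (on chromosome 14, 60268390 to 60269182).

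Large-subunit genes with an interval at their own start were fewer and mostly lower. RPL26, whose protein sits at the rim of the exit tunnel for new protein chains, had 45 at 36 bp upstream, with a CpG island (on chromosome 11, 27545522 to 27546529). RPL23A, another protein of the tunnel exit, had 23 at 10 bp into the gene (on chromosome 11, 19770633 to 19771552). RPL23, a protein of the face where the subunits meet, had 17 at 60 bp upstream (on chromosome 11, 39019938 to 39020745). Only RPL26 of these 3 exceeded the upper quartile of all intervals, 31.

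RPL18, a large-subunit protein, had 2 intervals upstream of its start, both with the summit inside its neighbour SPHK2, which encodes a sphingosine kinase. The nearer one had a height of 21 with the summit 447 bp upstream of RPL18 and 102 bp into SPHK2 (on chromosome 14, 54309111 to 54310246), and it held a CpG island. The other had 22 at 1903 bp upstream of RPL18 and 1558 bp into SPHK2 (on chromosome 14, 54310436 to 54311736), and it held none. From the distances of both summits, RPL18 starts at 54309329 on the minus strand and SPHK2 at 54309674 on the plus strand, so the genes are divergent with starts 345 bp apart. Both summits lay past the SPHK2 start, outside the stretch between the 2 starts.

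Mitochondrial ribosomal proteins with an interval at their own start had heights from 16 to 34. MRPS14, a small-subunit protein, had the highest, 34 at 10 bp into the gene, with a CpG island and no other gene assigned (on chromosome 12, 54280374 to 54281089). MRPL22, a large-subunit protein of the exit tunnel, had 24 at 67 bp upstream (on chromosome 5, 63640402 to 63641253). These were the 2 of the 6 above the median of all intervals.

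The other 4 mitochondrial genes bound at the start were lower. MRPS7 had 20 with the summit 64 bp into the gene and 111 bp upstream of GGA3, a Golgi sorting adaptor gene (on chromosome 11, 55232543 to 55233414). MRPL11, a protein of the stalk base, had 18 at 8 bp upstream (on chromosome 21, 43788438 to 43789427). MRPS24 had 17 at 114 bp upstream (on chromosome 19, 121225 to 122028), and MRPS33 had 16 at 15 bp upstream, without a CpG island (on chromosome 4, 104044152 to 104044896). All 4 heights were below the median of 22, with every summit between 8 and 114 bp from the start.

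The median height at own starts was 29.5 for the 10 cytosolic genes, with a range from 14 to 68, and 19 for the 6 mitochondrial genes, with a range from 16 to 34. The ranges overlapped, and genes of 1 library are not replicates, so this difference was not tested. All 410 intervals within 1 kb of any assigned start had a median of 27.5. A CpG island was marked in 14 of the 16 intervals at own starts (87.5%, 64.0 to 96.5), close to the 84.4% of all 410. RPS28 and MRPS33 were the exceptions. The ratio of the highest to the mean signal in an interval had a median of 2.27 in the 16 and 2.37 in the 410.

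**Figure D3:**
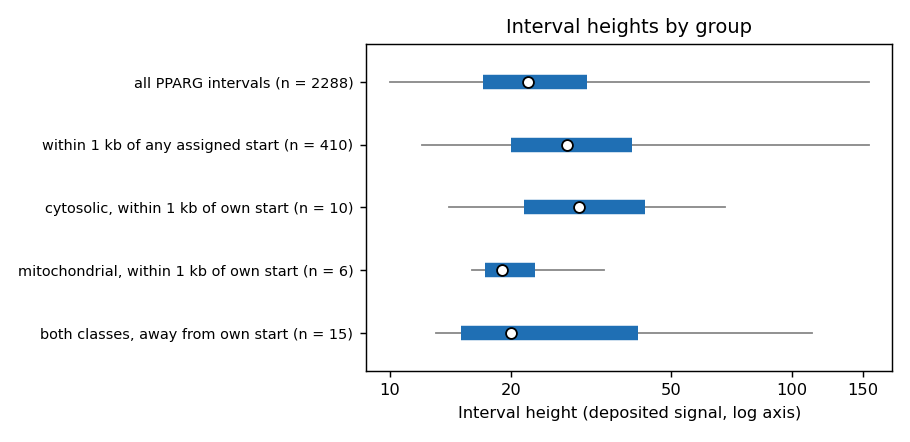
Interval heights (horizontal axis, deposited signal units, log axis) for all PPARG intervals, those within 1 kb of any assigned start, cytosolic and mitochondrial ribosomal protein genes at their own starts, and ribosomal protein intervals away from their own start. Points are medians (22, 27.5, 29.5, 19 and 20), thick bars the quartiles and thin lines the full range.

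The 12 other genes had no interval within 1 kb of their own start, and in 5 of them the interval lay at the start of a neighbour. The 2 highest intervals of all ribosomal protein genes were of this kind. RPL13A, which in human cells also takes part in translational control by interferon, was assigned an interval of 112 with the summit 8929 bp downstream of its start (on chromosome 14, 54980601 to 54981673), which ranked 3 among all 2288. RPS16, a small-subunit protein, was assigned one of 93 at 5087 bp upstream (on chromosome 14, 48297278 to 48298276), which ranked 12 with its summit 8 bp upstream of SUPT5H, a transcription elongation factor gene. RPL12, a protein of the stalk base, had 46 with the summit 1673 bp into the gene and 9 bp into LRSAM1, a ubiquitin ligase gene (on chromosome 3, 8633075 to 8634107).

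RPL3L, the muscle paralog of RPL3, was assigned an interval of 37 at 4672 bp upstream (on chromosome 24, 1508006 to 1508787). MRPL35 was assigned one of 29 at 8682 bp upstream, with the summit 311 bp into IMMT, which encodes an organiser of the mitochondrial inner membrane (on chromosome 3, 57937377 to 57938353). In these 5 cases (RPL13A, RPS16, RPL12, RPL3L and MRPL35) another assigned start lay within 1 kb of the summit, and each interval held a CpG island.

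The remaining 7 genes had intervals away from any assigned start. MRPL54 had the highest mitochondrial interval of all, 47 at 1909 bp upstream, without a CpG island, and its start was the nearest of the 4 assigned (on chromosome 5, 17778454 to 17779616). MRPL38 had 2 neighbouring intervals of 18 and 14, at 3788 and 2684 bp upstream. RPS21 also had 2 upstream, of 20 at 7332 bp and 15 at 5332 bp. Both intervals of each pair lay upstream of the same start of that gene. The starts lie at 54733532 on the plus strand of chromosome 11 (MRPL38) and 54179932 on the minus strand of chromosome 13 (RPS21). The MRPL38 pair also lay upstream of TRIM65, by 9548 and 8444 bp.

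RPL27 had the lowest interval, 13 at 2808 bp into the gene, and MRPS10 had 15 at 1186 bp into the gene. RPS19BP1, the binding partner of RPS19, had 14 at 8734 bp downstream, in an interval whose summit was 1155 bp upstream of ATF4, a stress-response transcription factor gene. Of these 7 genes, only MRPL54 had an interval above the median height of 22.

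A further 4 cytosolic genes became visible through their gene identifiers. The table lists 146 names of the form LOC followed by a gene ID. Of these, 119 were found by ID in RefSeq, 67 under another symbol, and 4 of those were ribosomal protein genes, among them RPS2, RPS6 and RPL4. They do not follow the naming rule, and this reading was chosen after the data were seen.

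RPS2, a protein at the messenger RNA entry site, is LOC780524, and the interval of 37 assigned to RPL3L had its summit 204 bp upstream of it. The interval of RPL3L thus lay at the start of another ribosomal protein gene.

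RPS6, the substrate of the S6 kinases, is LOC100037665 and had 39 at 17 bp into the gene (on chromosome 2, 87303013 to 87304026). RPL4, which lines the exit tunnel, is LOC780462 and had 39 at 166 bp upstream, with the summit 296 bp upstream of ZWILCH, a kinetochore gene (on chromosome 7, 13137631 to 13138688). Each of the 4 genes had a summit within 1 kb of its own start, in an interval with a CpG island. With them, 32 ribosomal protein genes had an interval, 22 of them cytosolic, and 20 had one at their own start. The cytosolic share of RefSeq names rose to 20 of 81 (24.7%, 16.6 to 35.1), and to 12 of 81 (14.8%, 8.68 to 24.1) at own starts, beside 9.69% and 2.43% of all genes counted in the same way. Of the 5 intervals of the 4 genes, 3 were not among the 31 counted before. Some cytosolic genes thus share an interval, which the Wilson interval of 20 of 81 does not take into account. The small cytosolic subunit had 12 of 32, RPS19BP1 included, and the large one 8 of 49.

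Most family members had no interval. Of the cytosolic names, 61 had none, among them RPL3, RPL5, RPL11, RPLP0, RPS3, RPS14, RPS18 and RPSA. Of the mitochondrial names, 65 had none under that name, among them MRPL1, MRPL12, MRPL44, MRPS2, MRPS12 and MRPS22. One of the 65, MRPL57, is listed under its older name MRP63, with a summit 28 bp upstream of its start. It is counted neither in the 10 of 75 mitochondrial genes nor in the 6 of 75 at own starts. Without read totals or the peak caller's threshold, no limit can be given for the signal at genes that have no interval.

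Intervals of ribosomal protein genes were usually shared. Of the 31, 26 (83.9%) were assigned to at least 2 genes, beside 29.1% of the 1518 intervals with a gene. All 31 carried a promoter mark, beside 49.3% of intervals with a gene, but the mark can belong to any gene assigned. An interval with many genes is more likely to include any given family, so these shares describe where the genes lie. In RefSeq, all 37 co-assigned pairs that could be looked up lay within 5 protein-coding genes of each other, and 26 of 26 genes lay on the chromosome of their interval. Ribosomal protein genes also have many processed pseudogenes, and the treatment of reads with several matches was not given in the sources used here.

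Intervals of the 28 genes lay on 13 of the 27 chromosomes with any interval. Chromosomes 11 and 14 together held 14 of the 31 (45.2%), beside 246 of all 2288 intervals (10.8%). The same chromosomes carry 23 of the 156 ribosomal protein names of RefSeq and 12 of the 28 genes with an interval. Chromosome 1, with 15 of the names, had no ribosomal protein interval. These chromosomes were singled out after the counts were seen.

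By height, 16 of the 31 intervals lay at or above the median of all intervals, beside 52.4% of all, and 10 lay above the upper quartile (32.3%, beside 24.0% of all). Of the 31, 21 lay within 1 kb of an assigned start (67.7%), beside 27.0% of intervals with a gene. The number of genes assigned to an interval was not matched. All 410 intervals within 1 kb of an assigned start had a median of 27.5. The 16 ribosomal protein intervals at own starts had a median of 23.5. The 100 highest intervals included 4, at RPL13A, RPS16, RPS28 and RPS19, all cytosolic and 2 of them away from their own start. Of the 20 cytosolic intervals, 12 were at or above the median, and of the 11 mitochondrial ones 4 were. Counted by gene among RefSeq names, 10 of 81 cytosolic and 4 of 75 mitochondrial genes had an interval of at least that height, beside 5.67% of all genes.

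Other genes of translation were counted in 5 lists, whose shares were not tested against those of the ribosomal protein families or of all genes. Among cytosolic translation factors, 8 of 48 had one (16.7%, 8.70 to 29.6), beside 9.69% of all named genes. Within 1 kb of the start, 3 had one (6.25%), beside 2.43% of all named genes. DENR, which recycles ribosomes and restarts initiation, had 95 at 917 bp upstream, and EIF5, which triggers start-codon commitment, had 64 at 1619 bp upstream. EIF3L, a subunit of the initiation scaffold, had 36 at 245 bp upstream. EIF2B4 and EIF4G3 had 24 each, away from their starts, and EIF4A2, an RNA helicase listed as LOC100037661, had 19 at 635 bp into the gene.

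Ribosome biogenesis factors had an interval in 4 of 51 (7.84%, 3.09 to 18.5), beside 9.69% of all genes. Within 1 kb of the start, 3 had one (5.88%), beside 2.43% of all genes. NMD3, the export adaptor of the large subunit, had 64 at 11 bp into the gene. MPHOSPH10 and IMP3, partners in processing of the small subunit's RNA, had 26 at 177 bp upstream and 19 at 173 bp upstream. BYSL, another small-subunit factor, had 31 at 11242 bp downstream, in an interval shared with CCND3.

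Aminoacyl-tRNA synthetases, which charge transfer RNAs, had 5 of 37 (13.5%, 5.91 to 28.0), beside 9.69% of all genes. Within 1 kb of the start, 1 had one (2.7%), beside 2.43% of all genes. Old synthetase symbols, such as QARS for QARS1 and VARS for VARS1, were read from general knowledge. The share of all genes was counted without that step. QARS1 had 93 at 8629 bp downstream, in an interval shared with QRICH1. LARS2 had 29 and PARS2 27, both mitochondrial enzymes bound away from their starts, and VARS1 had 2 intervals of 19 and 10. Mitochondrial translation factors had 2 of 23 (8.70%, 2.42 to 26.8), beside 9.69% of all genes. These 2 also had the summit within 1 kb of the start (8.7%), beside 2.43% of all genes. MTRF1L, a release factor, had 38 at 27 bp upstream, and GUF1, an elongation factor, had 19 at 567 bp upstream.

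Of 10 genes for ribosomal proteins or ribosome partners under other names, 3 had an interval. MRPL57, a mitochondrial large-subunit protein listed as MRP63, had 45 at 28 bp upstream, above all 6 mitochondrial genes named by the rule with an interval at their start. OXA1L, which anchors the mitochondrial ribosome at the membrane, had 13 at 108 bp into the gene.

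**Figure D4:**
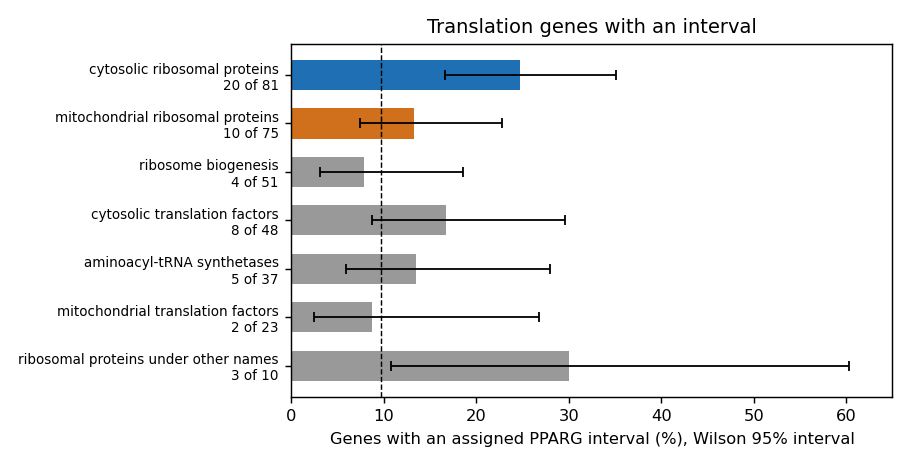
Share of genes with an assigned PPARG interval (horizontal axis, percent) for the ribosomal protein families and 5 lists of other translation genes (vertical axis, with counts), with LOC identifiers read through gene IDs. Error bars are Wilson 95% intervals over genes, and the dashed line is the share of all named protein-coding genes, 9.69%. Some old symbols in the lists were read from general knowledge, a step not applied to all genes. Cytosolic ribosomal proteins reach 20 of 81 and mitochondrial ones 10 of 75. MRPL57, listed as MRP63, is counted with the ribosomal proteins under other names and not among these 10.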

How the data were processed

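ChIP-seq libraries of a PPARG precipitate and of input chromatin were each made from 4 pooled day 14 conceptuses. The submitters' processing notes name BWA and build Oar_v3.1. The peak caller, its threshold, read filters, read totals and annotation were not given in the sources used here. Heights are the deposited peak signal of an interval on a density track, with no unit stated by the authors, and they served only to describe and rank intervals. Genes, distances, CpG islands and promoter marks are also those deposited by the authors.

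Gene names were split with their distances in Python 3.11.15 with pandas 2.3.3, after the parser was tested on made-up data. Shares used the 16388 named protein-coding genes of the RefSeq table for ARS-UI_Ramb_v3.0, which served only for names, gene order and chromosome. Of the 28 names, 26 matched, and of all 1833 names with an interval, 1521 did. Names without a match are left out of the shares. Every gene of the rule was named, except that a few items are counted but not reported here by name. Positions were given for intervals at own starts and for the 5 highest of each class, and a few others were named after their values were seen. The members and lists were chosen with earlier results of these data known. Promoter motifs had been planned and were not analysed here, since no sequence was used.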

Additional observations from a re-analysis of the deposited data

How the results depend on the processing

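No paired analysis was possible because each group holds 1 library. Counts moved most with how shared intervals were treated. With only intervals assigned to a single gene, 2 cytosolic and 3 mitochondrial genes were left, 4 genes kept an interval at their own start, and 10 of the 22 listed translation genes had one. With each interval given to the nearest start alone, 10 cytosolic genes were left. At or above the median height, 4 mitochondrial genes were left and 9 genes had an interval at their own start, and by construction the median heights rose to 41.0 and 31.5. The other 53 of 60 values stayed within 1.5 times the main count or inside the counting interval of the main share or median. They include windows of 5 and 10 kb, leaving out downstream assignments, input intervals or L paralogs, and LOC identifiers read through gene IDs, which was added after the data were seen. In 100.0% of intervals, the mean signal times the number of track bins lay within 0.02 of a whole number. The scaling of the signal was not given, so no counting error was computed for a height.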
